A study of Homo sapiens with 6 samples.

Results

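The extracellular matrix genes examined here encode glycoproteins, laminins, proteoglycans and the enzymes that modify and crosslink collagen. They are 54 genes taken by symbol from the 58735 rows of the count table, and each symbol matched 1 row. Collagen chains and matrix proteases were not included. RD is an established cell line of embryonal rhabdomyosarcoma (ERMS), a soft tissue sarcoma with skeletal muscle features. RD cells were transduced with lentivirus carrying a scrambled shRNA (control, n = 3) or TAK1 shRNA 1 (TAK1 knockdown, n = 3), and poly(A)-enriched RNA was sequenced. Both groups carry the lentiviral vector. Because 1 TAK1 shRNA in 1 cell line was sequenced, an effect of TAK1 loss and an effect of that construct cannot be told apart.

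Matrix glycoproteins such as fibronectin and tenascin bind integrins and give cells a substrate to adhere to and migrate on. Laminins are trimers of an α, a β and a γ chain that polymerize into the basement membrane, where nidogens and perlecan link them to collagen IV. Muscle fibers are surrounded by such a membrane, and laminins with the α2 chain anchor it to the dystroglycan complex. Prolyl and lysyl hydroxylases modify collagen in the endoplasmic reticulum, and lysyl oxidases crosslink collagen and elastin outside the cell. TAK1 is a kinase in TGF-β and cytokine signaling that acts upstream of AP-1 and NF-κB, and TGF-β is a known inducer of many matrix genes. The comparison addressed which of these genes differ in mRNA level when TAK1 is reduced.

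Total counts ran from 28839898 to 34469323 per sample, so counting error is small for all but the rare transcripts. Expression is given as CPM, a gene's count scaled to a common normalized library size. Differences are log2 fold changes of TAK1 knockdown over control with their standard error (SE). Each p is from the quasi-likelihood test of edgeR and was adjusted by Benjamini-Hochberg over the 15935 genes tested. A call of higher or lower needed both an adjusted p below 0.05 and a log2 fold change of 0.25 or more in either direction. MAP3K7, which encodes TAK1, was at 77.9, 76.5 and 77.6 CPM in control samples and at 30.5, 33.6 and 29.9 CPM in TAK1 knockdown samples. Of 7 muscle markers, 6 were detected, with summed levels of 1790 to 1811 CPM in control and 1697 to 1766 CPM in TAK1 knockdown samples, and MYF5 had no read in any sample. Of these, MYOD1, MYOG and MYMK were called higher (log2 fold changes 0.37, 0.27 and 0.98) and CHRNA1 lower (-0.40). The 3 endothelial markers summed to at most 0.162 CPM and the 3 leukocyte markers to at most 0.444 CPM in any sample, and CDH5 had no read. Among 4 fibroblast markers, THY1 made up nearly all of the summed 99.7 to 111 CPM and DPT had no read. The 5 epithelial markers summed to 56.4 to 62.8 CPM in control and 27.7 to 31.1 CPM in TAK1 knockdown samples, almost all of it from the keratin gene KRT18, while CDH1 and KRT19 had no read. The part of these markers in the results below was not tested. In bulk RNA, fewer cells that express a gene and less RNA per cell cannot be told apart.

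The strongest change among the matrix genes was in LOXL4, which encodes a lysyl oxidase and fell to 0.359 of its control level. BGN, TGFBI and LOX also fell, as did the laminin β1 and γ1 chain genes LAMB1 and LAMC1. In the opposite direction, the fibronectin gene FN1, the laminin α5 gene LAMA5, the nidogen gene NID2, LOXL2 and the low-level tenascin-X gene TNXB rose. Of the 54 genes, 44 had enough counts to be tested. The remaining 10, POSTN, MGP, ELN, EFEMP1, LAMA1, LAMA3, PRELP, FMOD, OGN and ASPN, had between 1 and 55 counts summed over the 6 samples. They did not pass the expression filter, so a difference in them was not tested in the main fit. Of the tested genes, 5 were called higher, against 11.8% of all genes tested, and 12 were called lower, against 11.3% of all genes tested. Among the 36 at a mean of 10 CPM or more, 4 were called higher and 12 lower, where 12.6% and 15.3% of all genes at that level were. Without regard to fold, 26 of the 44 had an adjusted p below 0.05, against 33.3% of all genes tested, and 9 of the 44 had such a p with a change under the fold threshold, against 10.2% of all genes tested. The median log2 fold change of the 44 genes was -0.018, against 0.018 over all genes tested, since rises and falls were equally frequent, with 22 positive and 22 negative values. Exons of 11 of the 17 called genes overlap those of another gene, on the same strand in TNXB, LAMA5 and LOXL2 (with ENTPD4). The overlap is on the opposite strand only in THBS1, THBS3, LAMB1, NID2, VCAN, LOX, LOXL1 and LOXL4. Examples are DLD for LAMB1, SRFBP1 for LOX and FSIP1 for THBS1. Strand use in counting was not given in the sources used here. The groups did not overlap in 26 of the 44 tested genes, against 43.9% of all genes tested, also without matching for level. All 17 called genes are among the 26, which their selection by p and fold makes likely. The 54 genes together took 1.24% to 1.27% of all counts in control and 1.15% to 1.21% in TAK1 knockdown samples.

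**Figure D1:**
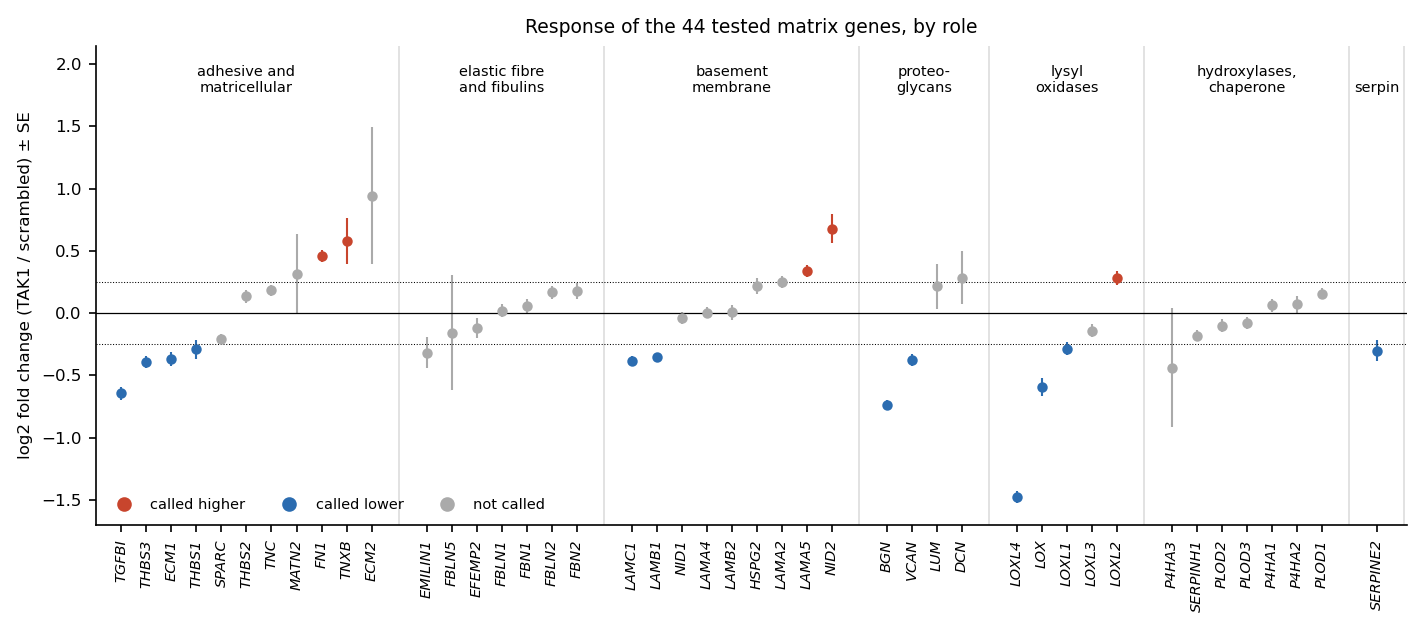
Log2 fold change of TAK1 knockdown over control RD cells (vertical axis, points with SE) for the 44 tested matrix genes, grouped by role and ordered by value within each role. Dotted lines mark the fold threshold of 0.25 in either direction. LOXL4 lies lowest at -1.48. The elastic fiber genes and the hydroxylases hold 0 called genes, where 11.8% of all genes tested were called higher and 11.3% lower.

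The lysyl oxidases are copper enzymes that oxidize lysines in collagen and elastin so that crosslinks can form. All 5 members were tested, and 3 were called lower and 1 higher, against 11.3% and 11.8% of all genes tested. All 5 had a mean of 10 CPM or more, where 15.3% of all genes were called lower and 12.6% higher. LOXL4 (chromosome 10, 98247690 to 98268194 in GRCh38, minus strand) was at 258, 255 and 240.0 CPM in control samples and at 89.2, 87.7 and 93.6 CPM in TAK1 knockdown samples. The knockdown values were all far below the lowest control value. Its log2 fold change was -1.48 with an SE of 0.049 (adjusted p = 1.79e-16). No other gene of the 2490 tested genes at 100 CPM or more on average had a lower log2 fold change, and 35 genes did so over all levels. Exons of LOXL4 overlap an unnamed gene on the opposite strand, ENSG00000230928.

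LOX, the founding member of the family, was at 31.1, 29.8 and 32.5 CPM in control and at 21.3, 20.6 and 20.1 CPM in TAK1 knockdown samples, a log2 fold change of -0.59 with an SE of 0.073 (adjusted p = 5.6e-07). LOXL1, which is linked to elastic fiber maintenance, was at 91.5, 83.2 and 83.4 CPM in control and at 73.6, 69.6 and 68.8 CPM in knockdown samples (log2 fold change -0.28, SE 0.056, adjusted p = 0.000261). Both genes fell in every knockdown sample relative to every control sample. The fall of LOXL1 lay under the fold threshold, at -0.24, without replicate 1 of the control samples and also with scaling by library size alone. LOXL2, an enzyme that acts on collagen IV, rose instead. It was at 83.3, 81.5 and 77.3 CPM in control and at 98.9, 92.1 and 104 CPM in knockdown samples (log2 fold change 0.29, SE 0.055, adjusted p = 0.000233). Without replicate 3 of the knockdown samples its log2 fold change was 0.23, under the fold threshold. LOXL3 had a log2 fold change of -0.14 with an SE of 0.053 (adjusted p = 0.0419), under the fold threshold. Among the 14 alternatives its adjusted p rose to as much as 0.188.

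Because the members moved by different amounts, their proportions differed between the groups. To compare genes, counts were divided by the length of the canonical transcript. On that scale LOXL4 was the most abundant lysyl oxidase mRNA of control cells, with 40.0%, 40.9% and 39.5% of the family sum in the 3 samples. In TAK1 knockdown cells it held 19.7%, 20.6% and 21.6%, below LOXL1, LOXL2 and LOXL3 in each sample. In knockdown replicate 2 LOXL2 was only narrowly above it, at 20.9%. The order depends on the canonical lengths, since in CPM LOXL4 lay above LOXL1 in every knockdown sample. The share of LOXL2 was 12.3% to 12.6% in control and 20.9% to 23.2% in knockdown samples. LOX held 3.28% to 3.79% in all 6 samples. The knockdown and control ranges overlapped for LOX and were apart for the other members. These shares do not depend on the normalization of the libraries, and they were given no test.

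**Figure D2:**
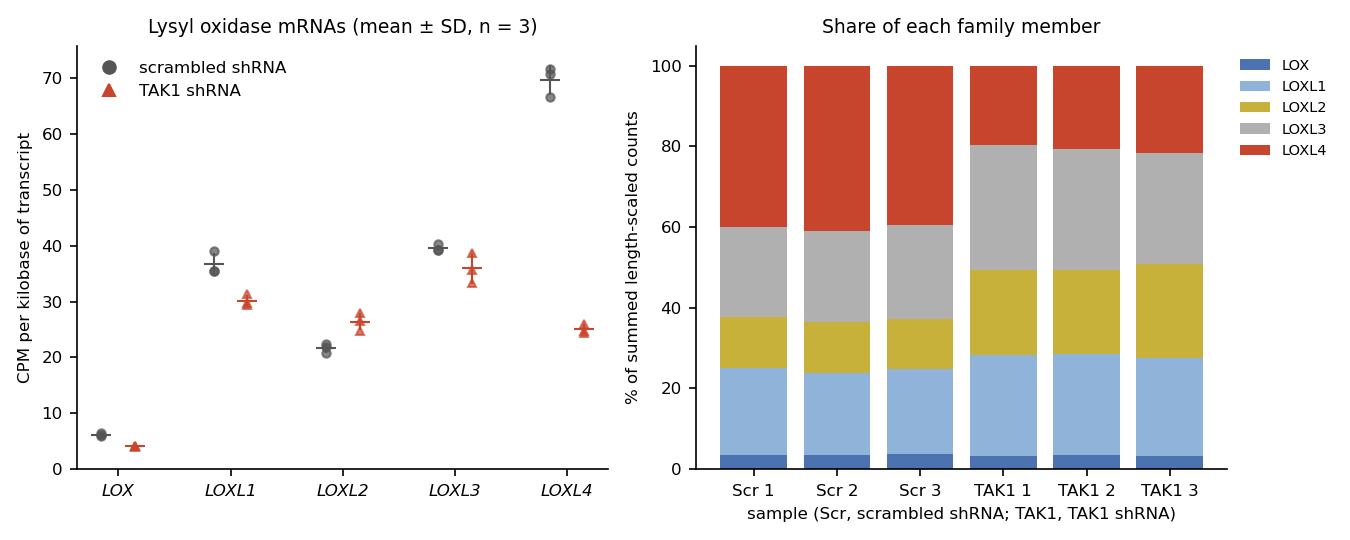
Left, CPM per kilobase of canonical transcript of the 5 lysyl oxidase genes in each sample (points), with mean and SD (n = 3) for scrambled shRNA and TAK1 shRNA. Right, share of each gene in the length-scaled sum of the family for each sample, where LOXL4 holds 39.5% to 40.9% in control and 19.7% to 21.6% in TAK1 knockdown samples.

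Basement membrane genes moved in both directions. LAMC1 (chromosome 1, 183023420 to 183145592), the γ1 chain of most laminins, was at 1412, 1319 and 1344 CPM in control and at 1032, 1006 and 1082 CPM in TAK1 knockdown samples. Its log2 fold change was -0.39 with an SE of 0.042 (adjusted p = 7.93e-08). LAMB1 (chromosome 7, 107923799 to 108003213), the β1 chain, was at 954, 944 and 971 CPM in control and at 736, 752 and 753 CPM in knockdown samples (log2 fold change -0.36, SE 0.039, adjusted p = 1.14e-07). Both chains fell by nearly the same factor, and in neither case did a knockdown sample reach the control range. LAMB2, the β2 chain found at neuromuscular junctions, had a log2 fold change of 0.01 with an SE of 0.058 (adjusted p = 0.95).

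Of the α chains, LAMA5 (chromosome 20, 62307955 to 62367312) was at 363, 352 and 342 CPM in control and at 486, 417 and 432 CPM in knockdown samples. It rose by a log2 fold change of 0.34 with an SE of 0.050 (adjusted p = 9.41e-06), and every knockdown sample lay above the controls. Exons of LAMA5 overlap MIR4758 on the same strand and those of ADRM1 and LAMA5-AS1 on the opposite strand. LAMA2, the α2 chain of the muscle basement membrane, was at 186, 181 and 186 CPM in control and at 210, 216 and 229 CPM in knockdown samples. Its groups did not overlap either, and its log2 fold change of 0.248 (SE 0.047, adjusted p = 0.000168) lay just under the fold threshold. LAMA2 passed that threshold under 7 of 14 alternatives, with values from 0.25 to 0.30. LAMA4, the most abundant α chain per kilobase of transcript, had a log2 fold change of 0.01 with an SE of 0.044 (adjusted p = 0.946).

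The ratio of chains within a sample was therefore different. Per kilobase of transcript, LAMB1 and LAMC1 stood close to 1:1 in every sample, with LAMB1 to LAMC1 ratios of 0.948 to 1.01 in control and 0.977 to 1.05 in TAK1 knockdown samples, which overlap. The summed α chains stood at 0.668, 0.693 and 0.687 of LAMC1 in control samples and at 0.994, 0.984 and 0.970 in knockdown samples. LAMA5 made up 25.7% to 26.8% of the α chain sum in control and 28.6% to 32.9% in knockdown samples, while LAMA4 went from 57.1% to 57.9% in control to 50.3% to 53.5% in knockdown samples. LAMB1 held 89.0% to 89.3% of the 2 β chains in control and 85.4% to 87.7% in knockdown samples. These ratios are descriptions without a test, and they rest on the canonical transcript being the one expressed.

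**Figure D3:**
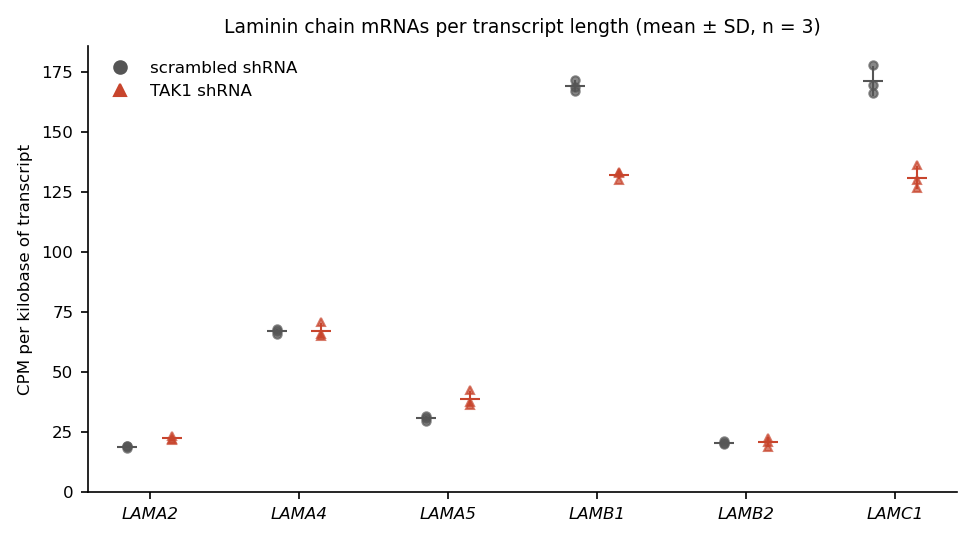
CPM per kilobase of canonical transcript of 6 laminin chain genes in each sample (points), with mean and SD (n = 3) for scrambled shRNA and TAK1 shRNA. LAMB1 and LAMC1 are the highest in both groups and lower in TAK1 knockdown cells, while LAMA5 and LAMA2 are higher and LAMA4 and LAMB2 overlap between groups.

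The nidogens are the linkers between laminin and collagen IV. NID2 was at 6.65, 8.26 and 9.44 CPM in control and at 12.3, 13.5 and 13.3 CPM in knockdown samples, a log2 fold change of 0.68 with an SE of 0.12 (adjusted p = 5.06e-05). Its knockdown values were all above the controls, and with 1 sample left out in turn the value lay between 0.56 and 0.80. Exons of NID2 overlap those of RTRAF on the opposite strand. NID1, with a mean of 287 ± 5.56 CPM in control (SD, n = 3), had a log2 fold change of -0.04 with an SE of 0.048 (adjusted p = 0.561). HSPG2, which encodes perlecan, had a log2 fold change of 0.22 with an SE of 0.062 (adjusted p = 0.00835). Its groups overlapped, since knockdown replicate 2 was at 379 CPM and control replicate 1 at 403 CPM, and without either of these samples HSPG2 passed the fold threshold at 0.31 and 0.28. Its adjusted p was 0.152 by DESeq2, 0.0839 without control replicate 3 (log2 fold change 0.17) and 0.0722 without knockdown replicate 3 (log2 fold change 0.18).

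Among the adhesive and matricellular glycoproteins, 11 of 13 were tested, of which 2 were called higher and 4 lower, against 11.8% and 11.3% of all genes tested. FN1 (chromosome 2, 215360440 to 215436073), the gene of fibronectin, was at 1021, 992 and 1003 CPM in control and at 1385, 1283 and 1480 CPM in TAK1 knockdown samples. It rose by a log2 fold change of 0.46 with an SE of 0.045 (adjusted p = 1.73e-08). The spread of the knockdown samples, an SD of 98.5 CPM, was larger than that of the controls, 14.3 CPM, but the groups stayed apart. TNXB, which encodes tenascin-X, was at 3.17, 2.32 and 2.21 CPM in control and at 3.73, 3.65 and 4.06 CPM in knockdown samples (log2 fold change 0.58, SE 0.18, adjusted p = 0.0175). This call was lost without control replicate 2 or 3 or knockdown replicate 3, with adjusted p from 0.0616 to 0.0925. Exons of TNXB overlap those of ATF6B on the same strand and of CYP21A2 on the other, and part of the gene has a near-identical copy, TNXA, so its counts are uncertain.

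TGFBI (chromosome 5, 136028988 to 136063818), a TGF-β-induced adhesion protein, was at 158, 163 and 163 CPM in control and at 104, 108 and 97.6 CPM in TAK1 knockdown samples. Its log2 fold change was -0.64 with an SE of 0.050 (adjusted p = 2.43e-10). THBS3, a thrombospondin, was at 138, 135 and 132 CPM in control and at 105, 105 and 98.8 CPM in knockdown samples (log2 fold change -0.39, SE 0.049, adjusted p = 7.12e-07). In both genes the control samples lay within a narrow range that no knockdown sample reached. Exons of THBS3 overlap those of MTX1 and THBS3-AS1 on the opposite strand.

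ECM1, extracellular matrix protein 1, was at 145, 144 and 149 CPM in control and at 123, 107 and 110 CPM in knockdown samples (log2 fold change -0.37, SE 0.053, adjusted p = 5.67e-06). THBS1, the thrombospondin that can activate latent TGF-β, was at 42.8, 35.2 and 40.3 CPM in control and at 32.9, 29.4 and 34.5 CPM in knockdown samples (log2 fold change -0.29, SE 0.077, adjusted p = 0.00497). The groups of THBS1 were separated by less than 1 CPM, and its log2 fold change was -0.23 without control replicate 1 or knockdown replicate 2 and -0.24 with scaling by library size alone, under the fold threshold. SPARC, a collagen-binding matricellular protein, had the highest level of all 54 genes per kilobase of transcript in both groups. SPARC was at 2531, 2487 and 2523 CPM in control and at 2244, 2104 and 2192 CPM in knockdown samples, a log2 fold change of -0.21 (SE 0.038, adjusted p = 0.000141) that lay under the fold threshold. Tenascin-C, TNC, moved the other way by 0.19 (SE 0.044, adjusted p = 0.00179), also under the fold threshold.

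THBS2, another thrombospondin, had a log2 fold change of 0.14 (SE 0.054, adjusted p = 0.0568). MATN2, a matrilin, and ECM2 were both near or below 1 CPM, with log2 fold changes of 0.32 (SE 0.32, adjusted p = 0.495) and 0.94 (SE 0.55, adjusted p = 0.201). The value for ECM2 rests on 76 counts over all samples and on knockdown replicates 1 and 3, and without knockdown replicate 2 it was 1.39 (adjusted p = 0.0455).

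**Figure D4:**
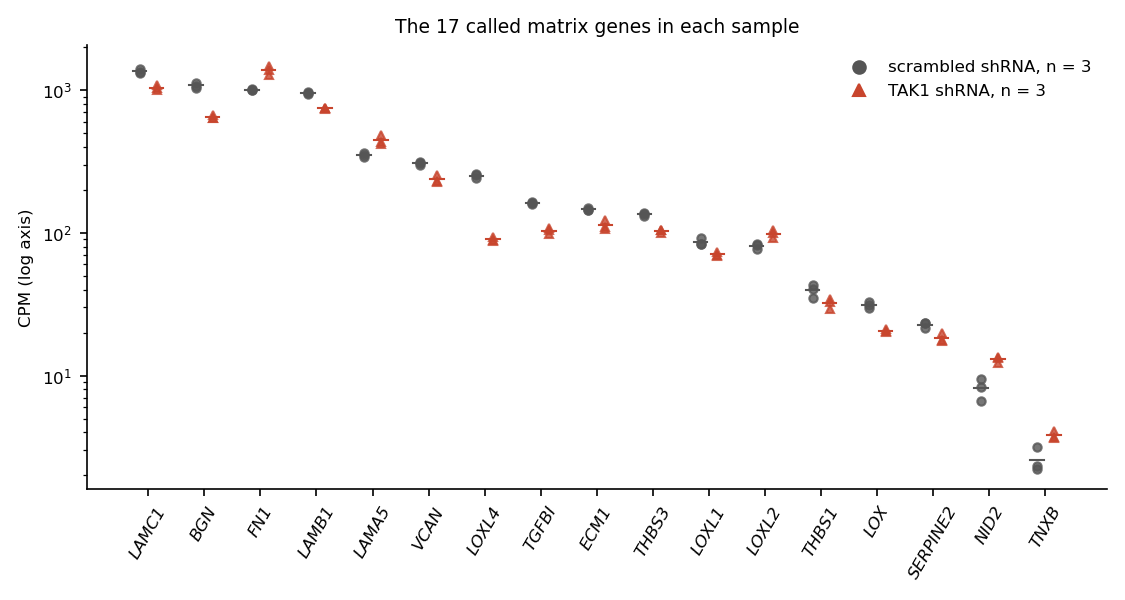
CPM on a log axis of the 17 called matrix genes in each of the 3 scrambled shRNA samples (circles) and 3 TAK1 shRNA samples (triangles), with group means as bars, ordered by control mean. The 2 groups do not overlap in any of the 17 genes, from LAMC1 at over 1000 CPM to TNXB at 2.21 to 4.06 CPM.

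Proteoglycans carry glycosaminoglycan chains that hold water and bind growth factors. Only 4 of the 8 genes were tested, and the 2 that are abundant in RD cells were both called lower, against 11.3% of all genes tested. Among all tested genes at a mean of 10 CPM or more, as these 2 are, 15.3% were called lower. BGN (chromosome X, 153494980 to 153509546), which encodes biglycan, a small leucine-rich proteoglycan, was at 1119.8, 1070.2 and 1036 CPM in control and at 665, 639 and 633 CPM in TAK1 knockdown samples. It fell to 0.600 of its control level, a log2 fold change of -0.74 with an SE of 0.042 (adjusted p = 1.34e-12). VCAN, the large hyaluronan-binding proteoglycan versican, was at 314, 299.7 and 310.5 CPM in control and at 232, 228 and 254 CPM in knockdown samples (log2 fold change -0.37, SE 0.048, adjusted p = 1.04e-06). The knockdown samples of both genes lay below all controls. DCN and LUM, the related decorin and lumican genes, were under 7 CPM in every sample, with log2 fold changes of 0.28 (SE 0.21, adjusted p = 0.336) and 0.22 (SE 0.18, adjusted p = 0.404). Their positive sign rests on knockdown replicate 3, since without it the values were -0.08 and -0.06.

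SERPINE2, a secreted inhibitor of serine proteases, was at 23.3, 23.2 and 21.6 CPM in control and at 17.9, 19.8 and 17.6 CPM in knockdown samples. Its log2 fold change was -0.30 with an SE of 0.081 (adjusted p = 0.00528), and the groups did not overlap.

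Elastic fiber and fibulin genes gave 0 calls among the 7 tested of 9, where 11.8% of all genes tested were called higher and 11.3% lower, so few calls would stand in a group of this size at those shares. DESeq2 and limma voom also gave 0 calls. By edgeR's quasi-likelihood test 3 of the 7 had an unadjusted p below 0.05, a share not computed over all genes. An adjusted p below 0.05 was found for 33.3% of all genes tested. Of the 7, 2, FBN2 and FBLN2, had an adjusted p under 0.05 with small log2 fold changes of 0.18 (SE 0.065, adjusted p = 0.0361) and 0.17 (SE 0.052, adjusted p = 0.0152). FBN2, the fetal fibrillin, spread widely in TAK1 knockdown cells, at 213, 185 and 246 CPM against 189.9, 189 and 189.8 CPM in control, and its value rested on single samples, at 0.28 (adjusted p = 0.000134) without knockdown replicate 2 and 0.06 (adjusted p = 0.469) without knockdown replicate 3. The adjusted p of FBN2 was 0.287 by DESeq2. That of FBLN2 in edgeR was 0.111 without control replicate 2 and 0.0544 without knockdown replicate 1. FBN1, the fibrillin of adult microfibrils, had a log2 fold change of 0.05 (SE 0.056, adjusted p = 0.503). FBLN1, with 309 ± 14.7 CPM in control and 314 ± 18.8 CPM in knockdown cells (SD, n = 3), had one of 0.02 (SE 0.049, adjusted p = 0.791). EFEMP2, the fibulin that binds LOX, had a log2 fold change of -0.12 (SE 0.082, adjusted p = 0.285). EMILIN1, an elastin-associated glycoprotein, was at 8.76, 8.19 and 9.76 CPM in control and at 7.45, 5.97 and 8.06 CPM in knockdown samples, apart by a narrow margin. Its log2 fold change was -0.32 (SE 0.13, adjusted p = 0.0571), and without knockdown replicate 3 it was -0.42 and called lower (adjusted p = 0.0236), whereas without knockdown replicate 2 it was -0.20 (adjusted p = 0.266). FBLN5 was below 2 CPM with -0.16 (SE 0.46, adjusted p = 0.834), and ELN itself had 20 counts in all.

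The collagen hydroxylases and the collagen chaperone, with all 7 tested, gave 0 calls by edgeR, DESeq2 and limma voom. By edgeR 11.8% of all genes tested were called higher and 11.3% lower, so few calls would stand in a group of this size. An unadjusted p below 0.05 in edgeR was found for 2 of the 7, a share not computed over all genes. In the edgeR test SERPINH1 and PLOD1 had an adjusted p under 0.05 below the fold threshold. SERPINH1, which encodes the collagen chaperone HSP47, was at 689, 667 and 657 CPM in control and at 626, 569.5 and 581 CPM in knockdown samples (log2 fold change -0.18, SE 0.044, adjusted p = 0.00231). PLOD1, a lysyl hydroxylase, moved the other way by 0.16 (SE 0.046, adjusted p = 0.00953). Among the 14 alternatives the adjusted p of PLOD1 rose to as much as 0.0629. Both genes are abundant, and in both the groups did not overlap although the changes are small. The other lysyl hydroxylases PLOD2 and PLOD3 had log2 fold changes of -0.10 (SE 0.053, adjusted p = 0.153) and -0.08 (SE 0.050, adjusted p = 0.254). The prolyl hydroxylase α subunits P4HA1 and P4HA2 had log2 fold changes of 0.06 (SE 0.056, adjusted p = 0.436) and 0.07 (SE 0.066, adjusted p = 0.451). P4HA3 was below 1 CPM, at -0.44 (SE 0.48, adjusted p = 0.528).

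**Figure D5:**
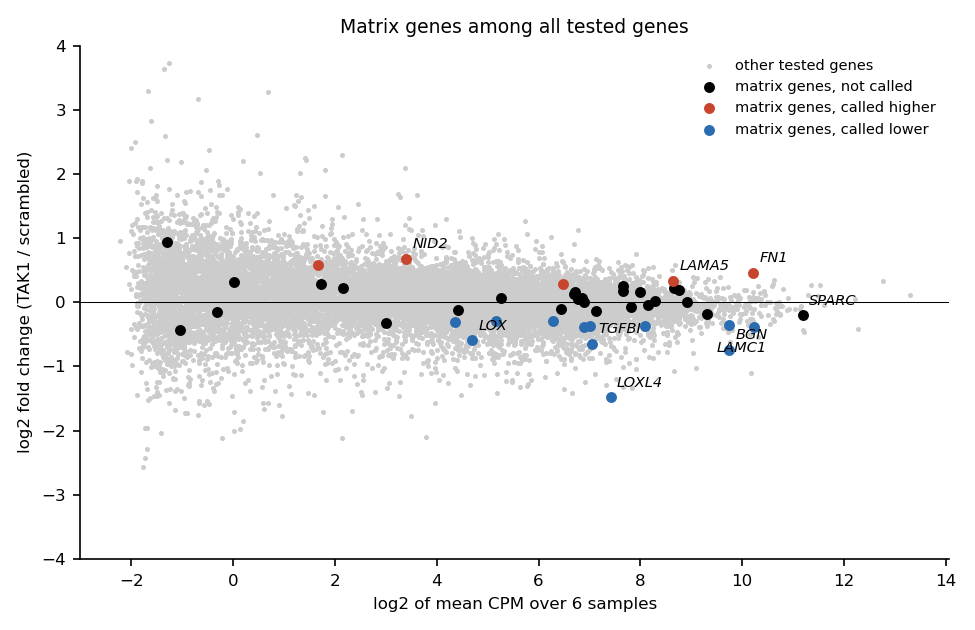
Log2 fold change of TAK1 knockdown over control (vertical axis) against the log2 of the mean CPM over 6 samples (horizontal axis) for all 15935 tested genes, with the 44 tested matrix genes in larger points. LOXL4, at -1.48, is lowest among the matrix genes, and SPARC has the highest level of them.

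Other matrix genes were taken from 2 further lists. Of 52 further core matrix glycoproteins and proteoglycans, 30 were tested, 1 was called higher and 7 lower, against 11.8% and 11.3% of all genes tested. SMOC1, a SPARC-related calcium-binding protein, had means of 172 ± 1.71 CPM in control and 118 ± 6.69 CPM in knockdown samples (SD, n = 3) and a log2 fold change of -0.54 (adjusted p = 4.65e-09). The hemicentin HMCN2, the multimerin MMRN2, the SPARC homolog SPARCL1, SRPX, SRPX2 and CTHRC1 were called lower with log2 fold changes of -0.53, -0.66, -0.42, -0.27, -0.50 and -0.31. MMRN2 was at a low level, with means of 2.85 CPM in control and 1.81 CPM in knockdown samples (SE 0.21, adjusted p = 0.0186). The adjusted p of SRPX was 0.0281. EMILIN3 was the only one called higher, at 0.33. The median log2 fold change of the 30 genes was -0.19, against 0.018 over all genes tested. For the 15 at a mean of 10 CPM or more it was -0.12, against -0.014 over all genes at that level. The γ3 laminin chain LAMC3 had a log2 fold change of -0.17 (adjusted p = 0.107).

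The second list held 31 enzymes and chaperones of matrix assembly. Of its 27 tested genes, 3 were called higher and 3 lower, against the same 11.8% and 11.3%, and the median log2 fold change was 0.10. For the 25 at a mean of 10 CPM or more the median was 0.036. TLL2, a protease of the family that processes procollagen and pro-lysyl oxidase, had means of 465 ± 4.93 CPM in control and 292 ± 4.66 CPM in knockdown samples (SD, n = 3) and a log2 fold change of -0.67 (adjusted p = 6e-12). FKBP14, a prolyl isomerase of the endoplasmic reticulum, was called lower at -0.32, and COLGALT2, which adds galactose to collagen, higher at 0.58.

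Promoter windows were taken from RefSeq (GRCh38.p14), each with 250 bases before and 50 after an annotated start. Windows were found for 44 of the 54 genes, 54 windows in all, including those of the 12 genes called lower and of 4 of the 5 called higher. Motifs of AP-1, NF-κB, TEAD, SMAD and muscle E-box factors were searched on both strands, and a window with several matches to a motif was counted once. The windows of 2 called genes are shown, LOXL4 because it fell most and ECM1 because its window alone among those of called genes matches the AP-1 pattern TGANTCA. Capitals mark the matches. LOXL4 lies at chr10:98268145-98268444 on the minus strand and ECM1 at chr1:150507859-150508158 on the plus strand, and both are written 5′ to 3′ along the gene.
LOXL4: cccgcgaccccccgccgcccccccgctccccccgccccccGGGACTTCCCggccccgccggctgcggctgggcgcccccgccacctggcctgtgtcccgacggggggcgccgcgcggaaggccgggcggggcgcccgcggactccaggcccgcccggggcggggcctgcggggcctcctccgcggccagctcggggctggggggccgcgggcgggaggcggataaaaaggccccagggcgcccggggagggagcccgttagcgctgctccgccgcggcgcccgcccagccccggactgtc
ECM1: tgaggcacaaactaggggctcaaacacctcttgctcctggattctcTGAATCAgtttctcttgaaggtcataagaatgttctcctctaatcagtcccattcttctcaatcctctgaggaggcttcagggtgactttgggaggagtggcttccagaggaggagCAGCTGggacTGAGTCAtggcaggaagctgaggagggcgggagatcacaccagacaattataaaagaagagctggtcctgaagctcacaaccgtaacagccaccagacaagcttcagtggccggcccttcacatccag

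The LOXL4 window, with a GC content of 85.3%, holds 1 match to the NF-κB consensus, which begins at position -210 from the start. The consensus is in the windows of 6 of the 44 genes (FBLN1, LAMB1, LOXL4, NID1, SERPINH1 and THBS3), in 11.1% of the 54 windows against 11.3% of all 34943 windows. Another NF-κB-like pattern, searched first and neither wider nor narrower than the consensus, is in 9.26% of windows against 6.52% of all, in EFEMP2, LAMB1, LOX and TNC but not LOXL4. The AP-1 pattern TGANTCA, where N is any base, is wider than TGA(C/G)TCA. It is in the windows of ECM1, LAMA3 and POSTN, in 5.56% of windows against 7.72% of all. ECM1 has 2 matches, TGAATCA at position -204 and TGAGTCA at -78, and only the match at -78 has the narrower form. The E-box CAGCTG is in 16.7% of windows against 17.9%, and it is the third match in ECM1, at position -88, where it does not overlap the AP-1 matches. The TEAD motif GGAATG is in 18.5% against 14% of all windows, among them those of THBS1 and TNXB of the called genes. The SMAD palindrome GTCTAGAC is in 0 of the 54 windows and in 0.203% of all windows. A match describes letters in the window and not binding.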

How the data were processed

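The authors deposited 1 table of raw counts of reads per gene for 3 scrambled shRNA and 3 TAK1 shRNA samples of RD cells. Per the labels and the methods, base calling used CASAVA, adaptor and low-quality reads were removed, and reads were aligned to GRCh38 with STAR. The counter, annotation release, strand use and handling of reads with several matches were not given in the sources used here. Nothing in the labels states whether replicates were separate growths of cells, so p-values measure the spread between these samples. Replicates differed by more than sampling noise (chi-square per degree of freedom 2.86 to 8.67).

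Of 58735 rows, 15935 passed edgeR's default expression filter. Library sizes were scaled with TMM factors and groups compared with edgeR 4.0.16 in R 4.3.3 (quasi-likelihood test, group term only, Benjamini-Hochberg adjustment). SE was obtained as the absolute log2 fold change over √F. DESeq2 1.42.0, limma 3.58.1 (voom), 3 normalizations, 2 filters, 2 fold thresholds, a replicate block and the omission of each sample were alternatives. The tests were also run on simulated counts with the same dispersion for every gene. That check cannot show how they behave at the spread of these replicates. Gene coordinates, overlaps and canonical transcript lengths came from GENCODE 44 (GRCh38). Every gene of the list is named, with values in every sample for those past both thresholds. The genes and lists were chosen with earlier results of these data known, and the motifs and shown promoters after the values were seen.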

Additional observations from a re-analysis of the deposited data

How the results depend on the processing

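Of the 17 called genes, 13 kept their call under all 14 alternatives with the fold threshold of 0.25, namely FN1, LAMA5 and NID2, higher, and THBS3, ECM1, TGFBI, LAMB1, LAMC1, BGN, VCAN, LOX, LOXL4 and SERPINE2, lower. TNXB, THBS1, LOXL1 and LOXL2 did not. With 1 sample left out in turn, 3 to 9 of the matrix genes were called higher, fewest without knockdown replicate 3 and most without knockdown replicate 2, and 10 to 13 lower. For the further core matrix genes the ranges were 1 to 2 higher and 5 to 7 lower, and for the matrix-modifying enzymes 3 to 5 and 3 to 4. In the same fits, 1582 to 1810 of all genes were called higher and 1675 to 1931 lower, of 16227 to 16427 tested. At a fold threshold of 0.5, 2 matrix genes were called higher and 4 lower, with 0 and 3 of the further core matrix genes and 2 and 1 of the modifying enzymes. The share of all genes at that threshold was not computed. With no fold threshold, 11 matrix genes were called higher and 15 lower, with 2 and 7 of the further core matrix genes and 10 and 6 of the modifying enzymes. At that setting 33.3% of all genes tested were called in either direction. Upper-quartile normalization and scaling by library size alone called 5 and 6 modifying enzymes higher, with 2027 and 2376 of all 15935 genes tested. Scaling by library size alone raised the median log2 fold change of all genes from 0.018 to 0.066 and the upward share of all calls from 51% to 62.9%. Genes that were not called changed sign in some fits. LAMA4 was at -0.00024 with DESeq2, -0.00025 with relative log expression and -0.0016 with no expression filter, LAMB2 at -0.00085 with no filter, and NID1 at 0.0069 with scaling by library size alone. With 1 sample left out, LAMA4 ranged from -0.044 to 0.029, LAMB2 from -0.067 to 0.066, NID1 from -0.079 to 0.0067, FBN1 from -0.016 to 0.11, FBLN1 from -0.020 to 0.064, FBLN5 from -1.07 to 0.23, DCN from -0.081 to 0.48 and LUM from -0.061 to 0.34. The cause was not tested. Between same-numbered samples, deviations from the group means over all tested genes had correlations of 0.014 to 0.033. The labels give only a shared number, and these correlations cannot exclude shared handling. A replicate block in the edgeR fit called 5 matrix genes higher and 13 lower, adding EMILIN1 at -0.32 (adjusted p = 0.0266). That fit called 1942 of all 15935 genes higher and 1848 lower. With at least 10 counts required in every sample, ECM2 and P4HA3 were not tested.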

Other observations

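The list of matrix-modifying enzymes holds 10 that build or trim heparan and chondroitin sulfate chains, a subset picked after the values were seen. Of the 9 tested, 2 were called higher and 1 lower, against 11.8% and 11.3% of all genes tested. SULF1, an extracellular sulfatase of heparan sulfate, rose, with means of 58.7 ± 1.86 CPM in control and 84.1 ± 6.36 CPM in knockdown samples (SD, n = 3) and a log2 fold change of 0.52 (adjusted p = 1.89e-07 by edgeR's quasi-likelihood test), and its relative SULF2 had a log2 fold change of 0.24 (adjusted p = 0.0115), under the fold threshold. EXT1, a heparan sulfate polymerase subunit, fell, with means of 184 ± 8.03 CPM in control and 149.6 ± 5.97 CPM in knockdown samples, a log2 fold change of -0.30 (adjusted p = 3.39e-05), whereas its partner EXT2 had one of 0.02 (adjusted p = 0.818). CHPF, a chondroitin polymerizing factor, rose by 0.28 (adjusted p = 0.000283), and the chondroitin synthase CHSY1 had a log2 fold change of -0.19 (adjusted p = 0.00618). XYLT2, HS6ST1 and HS6ST2 had log2 fold changes of 0.17, 0.14 and -0.15 and were not called, and XYLT1 was not tested. Differences between the members of these pairs were not tested.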
